A study of Homo sapiens with 11 samples.

Results

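AsPC-1 and PANC-1 are established human pancreatic cancer cell lines, and their control libraries were compared with each other at baseline. Of the 11 poly(A) RNA libraries of the series, the 5 controls were used: 2 of AsPC-1 and 3 of PANC-1. The other 6 libraries come from cells treated with small interfering RNA (siRNA) against MYEOV and are not used here. The labels call the controls wild type and untreated, but a negative-control siRNA is named in the protocol. The deposited count tables of the controls also carry nc in their names, which may stand for negative control. Whether the control cells were transfected is not known. All libraries of the series are of the same time point. AsPC-1 was grown in RPMI medium and PANC-1 in DMEM, each with fetal bovine serum, so cell line and culture medium cannot be told apart. Each group is replicates of 1 line, and nothing in the labels says that they were separate cultures, so every p-value is relative to a spread that may be technical.

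As background, ductal cells of the pancreas are epithelial cells held together by cadherin and desmosome junctions and anchored to the basement membrane by integrins. Their identity is kept by transcription factors of the HNF, GATA, FOXA and SOX families. Pancreatic carcinomas keep this program to different degrees, and a carcinoma cell that loses it often takes on genes of mesenchymal cells such as vimentin and matrix proteins. The questions put to the 5 libraries were which lineage, adhesion and metabolic genes each line transcribes, and which genes have no RNA in 1 of the lines.

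The libraries held 12127194 to 14541631 counts on genes and 22050 to 24025 genes with at least 1 count. A total of 15269 genes of 58735 reached 1 CPM in at least 2 of the 5 libraries and were tested. CPM is a gene's count scaled to a common library size, here with TMM factors (trimmed mean of M values), and every level below is in this unit. Exceptions are the limits of 1 and 5 CPM, the level allowed by 0 counts, and the bounds and ratios at low counts. These use library totals without TMM factors (0.889 and 0.905 in AsPC-1, 1.07 to 1.08 in PANC-1). With the factors, bounds and ratios towards PANC-1 would be lower and those towards AsPC-1 higher. Log2 fold changes are AsPC-1 minus PANC-1, so a positive value means more RNA in AsPC-1. At an adjusted p under 0.05 in edgeR's quasi-likelihood test, 11890 genes were called (77.9%), of which 5657 (37%) were higher in AsPC-1 and 6233 (40.8%) higher in PANC-1. With library totals as the only scaling, the split was 4286 against 7895 and the median log2 fold change of tested genes moved from -0.05 to -0.31. Because a call alone separates few genes from the rest, lists are described by the 6095 genes (39.9%) that were called and at least 2-fold apart, written "over 2-fold" from here on. Of these, 2703 (17.7%) were higher in AsPC-1 and 3392 (22.2%) higher in PANC-1, and these are the background shares for every list. The filter matters for these counts, since 913 tested genes reached 1 CPM in AsPC-1 libraries alone and 1919 in PANC-1 libraries alone. Such a gene entered the test through the line where it is high, so its direction was fixed by the filter. Those of AsPC-1 leave the test when 1 AsPC-1 library is left out. Of the 12437 genes with 1 CPM in a library of both lines, written "present in both lines" from here on and counted after the values were seen, 14.5% were over 2-fold higher in AsPC-1 and 13.5% in PANC-1. In bulk libraries like these, fewer cells with a transcript and less of it per cell cannot be told apart.

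The 7 markers given for the lines fell into 4 that were over 2-fold higher in AsPC-1, 2 that were over 2-fold higher in PANC-1, and ZEB1, which was called with a small difference. HNF4A, a nuclear receptor of gut, liver and pancreatic epithelium (chromosome 20, 44355700 to 44434596), had 183 and 188 CPM in AsPC-1 and 0, 0.0743 and 0.127 CPM in PANC-1. Its summed level was 2286-fold (95% counting interval 782 to 11087) higher in AsPC-1, where the interval is exact and covers counting error only. ABO, the glycosyltransferase of the A and B blood group antigens (chromosome 9, 133250401 to 133275219), had 27.9 and 25.1 CPM in AsPC-1 and 0, 0 and 0.0637 CPM in PANC-1. That single count in the PANC-1 libraries gives a ratio of 985-fold (95% counting interval 176 to 38959). The libraries of the 2 lines do not overlap in either gene.

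MYB, a transcription factor of progenitor cells (chromosome 6, 135181315 to 135219173), had 15.6 and 18.6 CPM in AsPC-1 and 0.525, 0.966 and 0.764 CPM in PANC-1 (log2 fold change 4.50 ± 0.21 SE, adjusted p = 7.93e-11 by edgeR). CDH1 encodes E-cadherin, the cadherin of epithelial junctions, and lies on chromosome 16 (68737225 to 68835548). It had 96 and 89.1 CPM in AsPC-1 and 7.54, 7.95 and 9.04 CPM in PANC-1 (log2 fold change 3.50 ± 0.10 SE, adjusted p = 1.97e-13 by edgeR). PANC-1 therefore held CDH1 RNA at a lower level, not at 0.

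VIM, which encodes the mesenchymal intermediate filament vimentin (chromosome 10, 17228259 to 17237593), had 1981, 2067 and 2031 CPM in PANC-1 and 863 and 829 CPM in AsPC-1 (log2 fold change -1.26 ± 0.05 SE, adjusted p = 1.23e-11 by edgeR). Both lines thus expressed VIM, and every PANC-1 library lay above both AsPC-1 libraries. ZEB1, a repressor of epithelial genes (chromosome 10, 31318495 to 31529814), had 52.9, 57.7 and 53 CPM in PANC-1 and 42.8 and 42.2 CPM in AsPC-1 (log2 fold change -0.36 ± 0.08 SE, adjusted p = 8.09e-04 by edgeR). Its difference was not called in a test against a change of 1.5-fold. LCA5, which encodes lebercilin of the primary cilium (chromosome 6, 79484991 to 79537458), had 14.4, 17.6 and 17.9 CPM in PANC-1 and 0 counts in both AsPC-1 libraries. It was at least 158-fold higher in PANC-1, a bound taken against 3 counts over the 2 AsPC-1 libraries, on library totals without TMM factors.

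**Figure D1:**
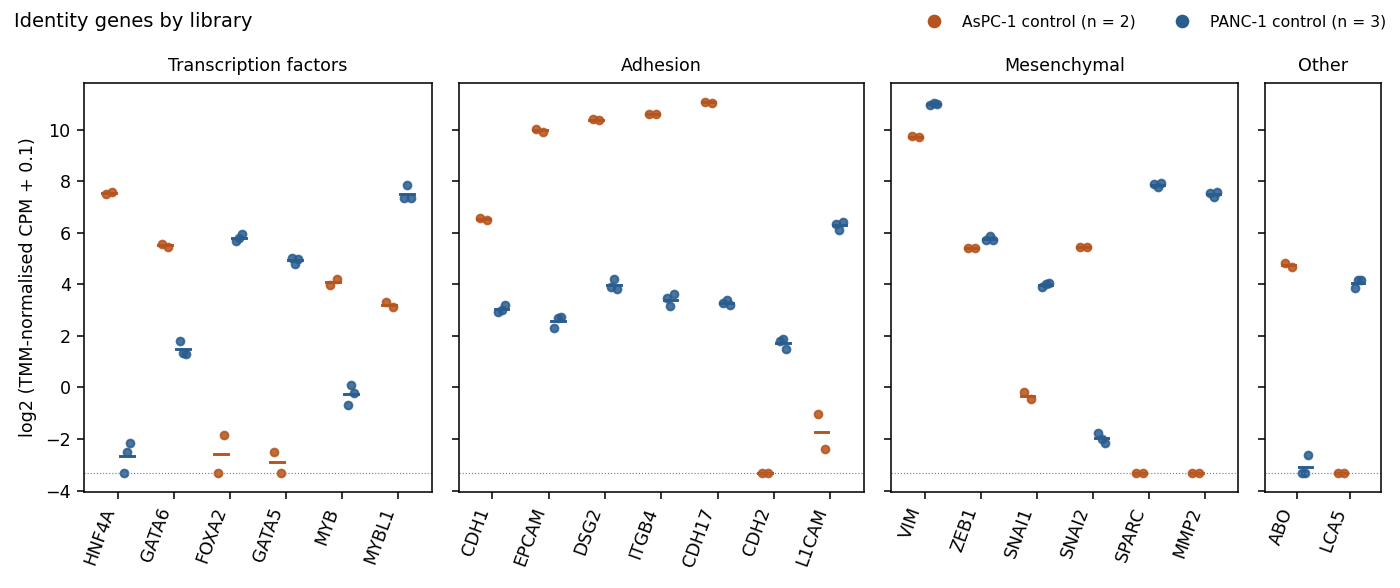
Level of 21 genes of identity in each control library, as log2 (TMM-normalised CPM + 0.1), with 2 AsPC-1 points and 3 PANC-1 points per gene and a line at the mean of the log2 values; the dotted line marks 0 counts. HNF4A and ABO lie near 0 counts in PANC-1, SPARC, MMP2, CDH2 and LCA5 lie at 0 in AsPC-1, and ZEB1 lies close together in both lines.

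Transcription factors of the pancreas and foregut divided between the lines. Of 42 listed factors, 30 were tested, and 19 were over 2-fold higher in AsPC-1 and 7 in PANC-1 (median log2 fold change 3.06, against -0.05 over all tested genes). Of the 18 present in both lines, 12 were over 2-fold higher in AsPC-1 and 2 in PANC-1. Without AsPC-1 library 1, 12 listed factors were over 2-fold higher in AsPC-1. NR1I2, the pregnane X receptor, had 100 and 94.7 CPM in AsPC-1 and 0 counts in PANC-1, at least 1204-fold higher. ISL1, an islet and foregut homeobox factor, had 27.9 and 23.4 CPM and 0 counts likewise (at least 318-fold).

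GATA6, a factor used to mark well-differentiated pancreatic carcinoma, had 47.4 and 43.4 CPM in AsPC-1 and 3.41, 2.45 and 2.36 CPM in PANC-1 (log2 fold change 4.04 ± 0.14 SE, adjusted p = 1.93e-12 by edgeR). EHF and ELF3 are ETS factors of epithelial cells. EHF had 335 and 341 CPM in AsPC-1 and 0.394, 0.0743 and 0.318 CPM in PANC-1, and ELF3 had 313 and 308 CPM in AsPC-1 and 7.35, 6.76 and 10.4 CPM in PANC-1. KLF5 (264 against 10.6 CPM, AsPC-1 against PANC-1 mean), FOXA1 (23.2 against 0.942 CPM), HNF4G (73.7 against 6.06 CPM), NR5A2 (88.4 against 9.3 CPM), CDX2 (35.6 against 3.27 CPM) and PDX1 (15.1 against 3.45 CPM) were over 2-fold higher in AsPC-1 too.

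Related factors were found on the PANC-1 side. FOXA2, the pioneer factor of endoderm, had 51.4, 55.4 and 61.8 CPM in PANC-1 and 0 and 0.182 CPM in AsPC-1, a ratio of 804-fold (95% counting interval 222 to 6646). GATA5 had 32.7, 27.7 and 31.1 CPM in PANC-1 and 0.0778 and 0 CPM in AsPC-1, and ONECUT3 had 104, 105 and 114 CPM in PANC-1 and 13.7 and 12 CPM in AsPC-1 (log2 fold change -3.06 ± 0.09 SE, adjusted p = 7.70e-13 by edgeR). SOX17, NKX6-1 and NKX6-2 had 0 counts in AsPC-1 and means of 4.24, 1.25 and 8.6 CPM in PANC-1. Within the FOXA and GATA families the members thus split by line: FOXA1 and GATA6 were over 2-fold higher in AsPC-1, and FOXA2, GATA4 (14.9 against 33.1 CPM) and GATA5 in PANC-1. SOX9, the ductal factor, had 158, 179 and 189 CPM in PANC-1 and 94.7 and 92.4 CPM in AsPC-1 and was called in the direction of PANC-1 without reaching 2-fold (log2 fold change -0.91 ± 0.08 SE, adjusted p = 7.28e-08 by edgeR).

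Ductal markers, a check of the labelled tissue, were partly present. Of 13 ductal markers, 8 were tested, 5 of them were over 2-fold higher in AsPC-1 and 0 in PANC-1. KRT8 had 10841 and 10760.5 CPM in AsPC-1 and 1328, 1185 and 1215 CPM in PANC-1, and KRT18 and KRT19 had means of 3101 against 505 CPM and 3664 against 637 CPM. KRT7, also a ductal keratin, was low in both lines, with 1.48 and 1.73 CPM in AsPC-1 and 1.84, 1.19 and 1.4 CPM in PANC-1 (log2 fold change 0.11 ± 0.31 SE, adjusted p = 0.764 by edgeR). CFTR, SPP1, AQP1 and SLC4A4, which mark mature ducts, stayed under the filter in both lines, with means of at most 0.214 CPM. The 12 acinar markers had 0 tested members, and their summed level was 0.455 to 1.21 CPM over the 5 libraries. Of 10 islet markers 1 was tested, MAFA (0.214 against 6.6 CPM), and INS, GCG, SST, PPY and IAPP had 0 counts in every library.

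Epithelial adhesion and polarity genes were mostly higher in AsPC-1. Of 50 listed genes 43 were tested, 31 were over 2-fold higher in AsPC-1 and 2 in PANC-1 (median 1.59). Of the 35 present in both lines, 23 were over 2-fold higher in AsPC-1 and 2 in PANC-1. EPCAM, the epithelial adhesion molecule, had 1041 and 964 CPM in AsPC-1 and 4.85, 6.39 and 6.56 CPM in PANC-1 (log2 fold change 7.40 ± 0.09 SE, adjusted p = 1.27e-16 by edgeR). The desmosomal cadherins showed the same direction: DSG2 had 1343 and 1317 CPM in AsPC-1 and 14.7, 18.1 and 13.9 CPM in PANC-1 (log2 fold change 6.42 ± 0.08 SE, adjusted p = 1.76e-16 by edgeR), and DSG3 had 67.9 and 60.8 CPM in AsPC-1 and 0 counts in PANC-1 (at least 797-fold). These genes with DSC2, DSC3 and DSG4 formed a run of 5 neighbours on chromosome 18 (30990008 to 31549008), each at least 4-fold lower in PANC-1.

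Desmoplakin, DSP, which ties desmosomes to keratin, had 732 and 713 CPM in AsPC-1 and 26.6, 30.1 and 32.7 CPM in PANC-1. The tight junction genes TJP3 (126 against 2.58 CPM), CGN (185 against 14.3 CPM), CLDN3 (30.6 against 5.17 CPM) and CLDN4 (218 against 102 CPM) were over 2-fold higher in AsPC-1, as were the splicing regulator ESRP1 (29.3 against 0.488 CPM) and the membrane protease ST14 (275 against 0.43 CPM). Core scaffolds differed less: TJP1 had 123 against 114 CPM and was not called (log2 fold change 0.11 ± 0.06 SE, adjusted p = 0.108 by edgeR), and CTNNB1 (296 against 212 CPM) and OCLN (43.5 against 49.7 CPM) were called with less than 2-fold between the lines. The 2 exceptions were PPL, periplakin, with 102, 95.1 and 103 CPM in PANC-1 and 13.2 and 12.6 CPM in AsPC-1, and GRHL1, with 10.4, 10.9 and 9.17 CPM in PANC-1 and 1.71 and 1.27 CPM in AsPC-1. Among 11 tested keratins 5 were over 2-fold higher in AsPC-1 and 3 in PANC-1. With either AsPC-1 library left out, the first number was 3, and the second was 1 without PANC-1 library 1 or 3. The 3 towards PANC-1 were KRT10, KRT81 and KRT86 (up to 16.4 CPM). Of the 7 keratins present in both lines, 3 were over 2-fold higher in AsPC-1 and 1 in PANC-1.

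Genes that mark the classical and the basal-like subtype of pancreatic cancer were for the most part not tested. Of 24 classical genes, 10 were tested and 9 were over 2-fold higher in AsPC-1 and 0 in PANC-1. Of these 10, 7 reached 1 CPM in AsPC-1 libraries alone, so the filter fixed their direction, and of the 3 present in both lines 2 were over 2-fold higher in AsPC-1. The count was 2 without AsPC-1 library 1 and 2 without AsPC-1 library 2, because those 7 genes then leave the test. CEACAM6, a cell-surface glycoprotein, had 2378 and 2343 CPM in AsPC-1 and 0, 0.0743 and 0.127 CPM in PANC-1. TSPAN8 had 492 and 469 CPM in AsPC-1 and 0.459, 0.0743 and 0.382 CPM in PANC-1, and LGALS4 had 303 and 299 CPM in AsPC-1 and 0.787, 1.41 and 1.59 CPM in PANC-1 (log2 fold change 7.89 ± 0.12 SE, adjusted p = 5.93e-16 by edgeR). AGR2, a chaperone of mucin folding, had 191 and 185 CPM in AsPC-1 and 183, 175 and 175 CPM in PANC-1 and was not called (log2 fold change 0.08 ± 0.06 SE, adjusted p = 0.224 by edgeR). The trefoil factors TFF1, TFF2 and TFF3 stayed under the filter, with at most 1.31 CPM.

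Of 25 basal-like genes, 11 were tested and 7 were over 2-fold higher in AsPC-1 and 0 in PANC-1 (median 2.88). Of the 8 present in both lines 4 were over 2-fold higher in AsPC-1, and the count was 4 without AsPC-1 library 2. FAM83A had 187 and 182 CPM in AsPC-1 and 0, 0 and 0.127 CPM in PANC-1. DHRS9 had 87.9 and 89.1 CPM in AsPC-1 and 0.918, 1.19 and 1.08 CPM in PANC-1, and the glucose transporter SLC2A1 had 387 and 355 CPM in AsPC-1 and 43.6, 42.4 and 64.9 CPM in PANC-1 (log2 fold change 2.88 ± 0.13 SE, adjusted p = 4.81e-11 by edgeR). The squamous keratins KRT5, KRT6A, KRT14 and KRT17 were at or near 0 in both lines. The 14 untested genes of each subtype list did not reach the filter, so the counts describe the minority of each list that these cells transcribe.

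Of 13 tested mucins and CEACAM genes, 10 were over 2-fold higher in AsPC-1 and 1 in PANC-1. Of these 13, 6 reached 1 CPM in AsPC-1 libraries alone, and of the 6 present in both lines 4 were over 2-fold higher in AsPC-1 and 0 in PANC-1. With either AsPC-1 library left out, the AsPC-1 count was 4. MUC17, a membrane mucin, had 816 and 791 CPM in AsPC-1 and 0.131, 0 and 0 CPM in PANC-1, and MUC13 had 185 and 179.9 CPM in AsPC-1 and 0, 0 and 0.0637 CPM in PANC-1. MUC5B, a secreted mucin, had 162 and 150.4 CPM in AsPC-1 and 0.656, 0.446 and 0.828 CPM in PANC-1 (log2 fold change 7.88 ± 0.13 SE, adjusted p = 1.24e-15 by edgeR). MUC1 had 26.2 and 26.8 CPM in AsPC-1 and 33.6, 32 and 36.3 CPM in PANC-1 and was called with less than 2-fold (log2 fold change -0.36 ± 0.09 SE, adjusted p = 0.00248 by edgeR). MUC16, the gene of CA125, was the member on the other side, with 1.11, 1.26 and 1.59 CPM in PANC-1 and 0 and 0.0911 CPM in AsPC-1.

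**Figure D2:**
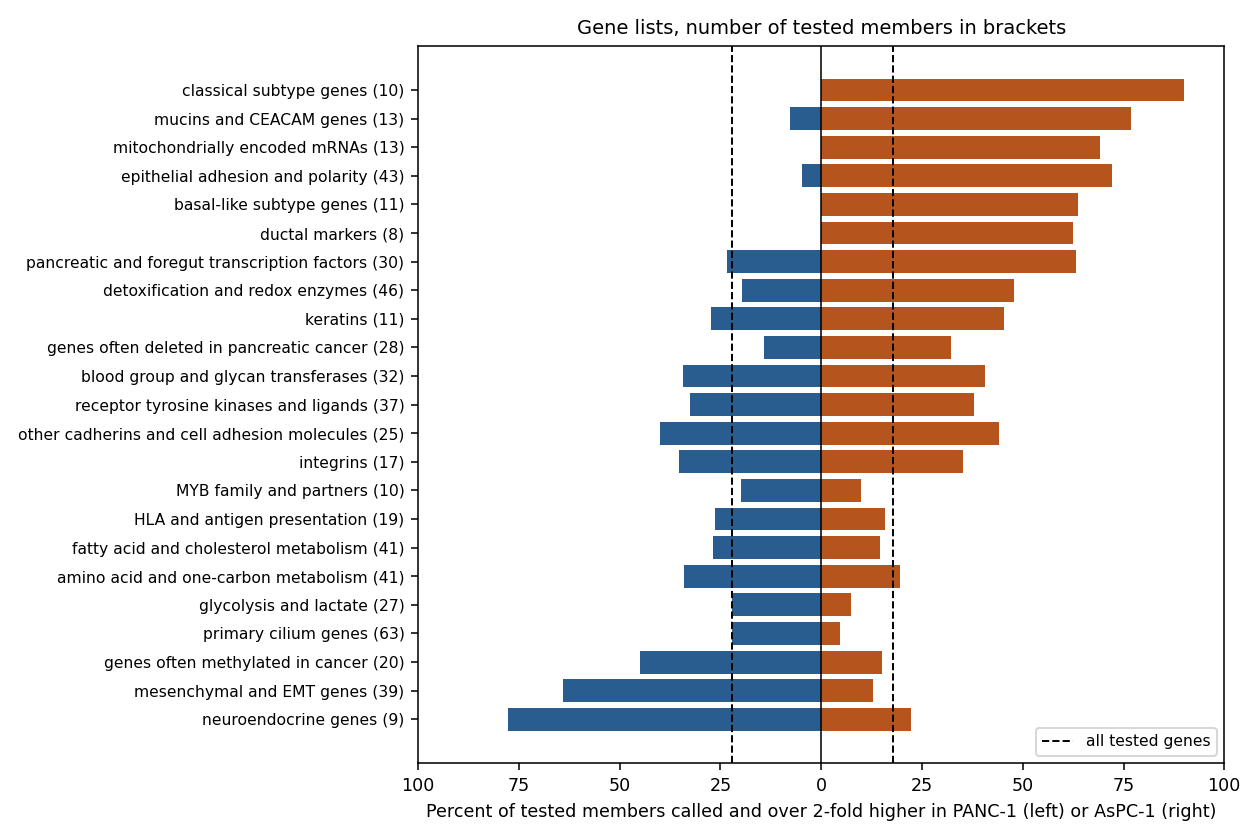
Percent of the tested members of each gene list that were called (edgeR adjusted p under 0.05) and over 2-fold higher in AsPC-1 (orange, right) or in PANC-1 (blue, left), for lists with at least 8 tested members, whose number stands in brackets; dashed lines mark the shares of all tested genes, 17.7% and 22.2%. Classical, mucin and epithelial lists extend to the right, mesenchymal and neuroendocrine lists to the left, and integrin and glycan lists to both sides, and the bars include genes that reached 1 CPM in 1 line alone.

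Of 44 listed mesenchymal genes 39 were tested, 25 were over 2-fold higher in PANC-1 and 5 in AsPC-1 (median -1.26). Of these 39, 17 reached 1 CPM in PANC-1 libraries alone, and of the 20 present in both lines 8 were over 2-fold higher in PANC-1 and 3 in AsPC-1. Without AsPC-1 library 1 the AsPC-1 count was 3. SPARC, a secreted matrix glycoprotein (chromosome 5, 151661096 to 151687165), had 239, 216 and 246 CPM in PANC-1 and 0 counts in both AsPC-1 libraries (at least 2231-fold). MMP2, gelatinase A, had 185, 168 and 189 CPM and 0 counts likewise (at least 1729-fold). SNAI1, the Snail repressor, had 14.9, 15.8 and 16.5 CPM in PANC-1 and 0.778 and 0.637 CPM in AsPC-1 (log2 fold change -4.45 ± 0.21 SE, adjusted p = 1.02e-10 by edgeR).

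The related repressor Slug, SNAI2, went the other way, with 43 and 43.1 CPM in AsPC-1 and 0.197, 0.149 and 0.127 CPM in PANC-1 (log2 fold change 8.01 ± 0.19 SE, adjusted p = 4.22e-14 by edgeR). COL6A1, a chain of collagen VI, had 798 and 773 CPM in AsPC-1 and 41.8, 37.7 and 49.7 CPM in PANC-1 (log2 fold change 4.19 ± 0.08 SE, adjusted p = 8.81e-15 by edgeR). Its partner chains did not follow it: COL6A2 had 34, 30.3 and 33.2 CPM in PANC-1 and 0.0778 and 0 CPM in AsPC-1, and COL6A3 had 2.49, 1.56 and 2.55 CPM in PANC-1 and 0.156 and 0.182 CPM in AsPC-1. S100A4 (1091 against 115 CPM) and FOXC1 (41.8 against 11.2 CPM) were also over 2-fold higher in AsPC-1.

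Among the matrix genes of PANC-1, COL5A2 had 616, 649 and 592 CPM in PANC-1 and 49.7 and 47.7 CPM in AsPC-1 (log2 fold change -3.67 ± 0.07 SE, adjusted p = 4.21e-15 by edgeR), LOXL2, which cross-links collagen, had 109, 97.6 and 114 CPM in PANC-1 and 0.934 and 0.911 CPM in AsPC-1 (log2 fold change -6.84 ± 0.16 SE, adjusted p = 2.92e-14 by edgeR), and COL1A1 had 36.6, 29.8 and 34.2 CPM in PANC-1 and 0.623 and 1 CPM in AsPC-1. N-cadherin, CDH2, was low in PANC-1 (3.34, 3.57 and 2.67 CPM) and at 0 counts in AsPC-1. FN1 and TAGLN were low in both lines and were not called (means 3.5 against 3.8 CPM and 4.59 against 4.58 CPM). TWIST1 had 0 counts in every library.

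Markers of fibroblasts, leukocytes and endothelium were examined for other cells in the cultures. Of 12 fibroblast markers 6 were tested, each of them at 1 CPM in 1 line alone (2 in AsPC-1, 4 in PANC-1), with summed levels of 307 to 320 CPM in AsPC-1 and 43 to 50.8 CPM in PANC-1. The AsPC-1 sum was almost wholly LUM, the gene of the proteoglycan lumican, which had 317 and 303 CPM in AsPC-1 and 0, 0.149 and 0.0637 CPM in PANC-1. The markers towards PANC-1 included COL1A1, whose levels are given above, THY1 (407 counts in PANC-1 and 1 in AsPC-1) and COL3A1 (150 counts and 1). DCN (0.351 against 0 CPM), PDGFRA (0 against 0.176 CPM), FAP (0 against 0 CPM) and COL1A2 (0.156 against 0.0212 CPM) were at or near 0 in both lines. Of 12 leukocyte markers, LYZ (30.3 against 0 CPM) and CD14 (2.49 against 1.04 CPM) were tested, and CD3E, CD2 and MS4A1 had 0 counts in every library. Of 10 endothelial markers, ENG (19.1 against 50.4 CPM) and ERG (0 against 2.11 CPM) were tested, while PECAM1 and CDH5 were near 0.

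Integrins differed over 2-fold in both directions, 6 members higher in AsPC-1 and 6 in PANC-1 of 17 tested (median -0.60). Of these 17, 1 reached 1 CPM in AsPC-1 libraries alone and 4 in PANC-1 libraries alone. Of the 12 present in both lines, 5 were over 2-fold higher in AsPC-1 and 2 in PANC-1. ITGB4, the beta chain that pairs with ITGA6 in hemidesmosomes, had 1549 and 1547 CPM in AsPC-1 and 10.8, 8.85 and 12.1 CPM in PANC-1 (log2 fold change 7.18 ± 0.08 SE, adjusted p = 9.10e-17 by edgeR), and ITGA6 had 636 and 630 CPM in AsPC-1 and 236, 264 and 244 CPM in PANC-1 (log2 fold change 1.35 ± 0.06 SE, adjusted p = 2.38e-11 by edgeR). ITGB6, an epithelial integrin that activates TGF-beta, had 28.3 and 31.4 CPM in AsPC-1 and 0.197, 0.0743 and 0.0637 CPM in PANC-1 (log2 fold change 7.94 ± 0.24 SE, adjusted p = 6.40e-13 by edgeR). ITGA5, the alpha chain of the fibronectin receptor, lay on the PANC-1 side with 275, 252 and 272 CPM in PANC-1 and 15.4 and 14.1 CPM in AsPC-1 (log2 fold change -4.17 ± 0.08 SE, adjusted p = 8.37e-15 by edgeR). ITGB1, the shared beta chain, was high in both lines (2797 against 1608 CPM).

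Some other hemidesmosome and basement membrane genes, not counted as a list, lay with ITGB4. COL17A1, the collagen of hemidesmosomes, had 1953 and 1965 CPM in AsPC-1 and 0.131, 0.223 and 0.191 CPM in PANC-1 (log2 fold change 13.34 ± 0.10 SE, adjusted p = 2.61e-18 by edgeR). The laminin chains LAMA3 (135 against 4.53 CPM) and LAMB3 (111 against 1.64 CPM) were both over 2-fold higher in AsPC-1. The laminin chain LAMC3 went the other way, with a mean of 29.2 CPM in PANC-1 and 0 counts in AsPC-1. Of 25 tested cadherins and other adhesion molecules, 11 were over 2-fold higher in AsPC-1 and 10 in PANC-1 (median 0.00), and of the 16 present in both lines 8 and 4 were. Without AsPC-1 library 1 the AsPC-1 count was 7.

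CDH17, liver-intestine cadherin, had 2165 and 2091 CPM in AsPC-1 and 9.51, 10.3 and 8.98 CPM in PANC-1 (log2 fold change 7.80 ± 0.07 SE, adjusted p = 4.63e-18 by edgeR). L1CAM, a neural adhesion molecule, had 80.3, 68.5 and 86 CPM in PANC-1 and 0.389 and 0.0911 CPM in AsPC-1 (log2 fold change -8.23 ± 0.24 SE, adjusted p = 5.38e-13 by edgeR). ICAM1, a ligand of leukocyte integrins, had 113, 109 and 132 CPM in PANC-1 and 0.623 and 1.18 CPM in AsPC-1 (log2 fold change -7.05 ± 0.18 SE, adjusted p = 1.18e-13 by edgeR), and CD44, the hyaluronan receptor, had 1191, 1199.9 and 1149 CPM in PANC-1 and 219 and 204 CPM in AsPC-1 (log2 fold change -2.48 ± 0.06 SE, adjusted p = 3.58e-14 by edgeR). CADM1 had 13.2, 13 and 16.9 CPM in PANC-1 and 0 counts in AsPC-1. NECTIN2 had means of 147 against 147 CPM and was not called.

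Glycosyltransferases, among which ABO stands, were split: of 32 tested, 13 were over 2-fold higher in AsPC-1 and 11 in PANC-1 (median -0.08). Of the 23 present in both lines, 9 were over 2-fold higher in AsPC-1 and 6 in PANC-1. On the AsPC-1 side, GCNT3, which branches mucin O-glycans, had 291 and 263 CPM in AsPC-1 and 0.131, 0.0743 and 0.0637 CPM in PANC-1. B3GALT5, which makes type 1 chains, had 269.7 and 283 CPM in AsPC-1 and 0.525, 0.223 and 0.191 CPM in PANC-1 (log2 fold change 9.73 ± 0.14 SE, adjusted p = 3.78e-16 by edgeR). FUT2, which makes the H antigen that ABO modifies in epithelia, had 12.8 and 15.4 CPM in AsPC-1 and 0.459, 0.372 and 1.02 CPM in PANC-1 (log2 fold change 4.46 ± 0.26 SE, adjusted p = 8.41e-10 by edgeR). FUT3, the Lewis enzyme, was near 0 in both lines (0 against 0.0672 CPM).

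On the PANC-1 side, ST6GAL1, which adds alpha-2,6 sialic acid to N-glycans, had 22.3, 20.7 and 22.1 CPM in PANC-1 and 0 counts in AsPC-1 (at least 207-fold). B3GNT7 had 151, 136 and 159 CPM in PANC-1 and 0.467 and 0.729 CPM in AsPC-1 (log2 fold change -7.96 ± 0.17 SE, adjusted p = 1.43e-14 by edgeR), and FUT8, which adds core fucose, had 44.9, 46.8 and 44.6 CPM in PANC-1 and 8.41 and 8.1 CPM in AsPC-1 (log2 fold change -2.46 ± 0.10 SE, adjusted p = 2.35e-11 by edgeR). The lines differed in which enzymes they transcribed, while ST3GAL4 (55.4 against 54 CPM) and FUT4 (13 against 15.1 CPM) were not called.

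In the MYB family, MYB and MYBL1 went opposite ways. MYBL1 had 162, 228 and 162 CPM in PANC-1 and 9.73 and 8.56 CPM in AsPC-1 (log2 fold change -4.32 ± 0.17 SE, adjusted p = 1.27e-11 by edgeR), and MYBL2, the member of proliferating cells, had 284 and 289.5 CPM in AsPC-1 and 230.3, 222 and 231 CPM in PANC-1 (log2 fold change 0.33 ± 0.05 SE, adjusted p = 6.11e-05 by edgeR). The MYBL2 difference was not called with library totals as the only scaling. Of the 10 tested members and partners, 1 was over 2-fold higher in AsPC-1 (MYB) and 2 in PANC-1 (MYBL1 and LIN37).

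LCA5 belongs to a list of 63 primary cilium genes, all of them tested, in which most members differed little. Over 2-fold, 3 were higher in AsPC-1 and 14 in PANC-1 (median -0.33), where the background shares are 17.7% and 22.2%. TMEM216 and other members lie close to a 2-fold difference, and the first number was 5 without PANC-1 library 1 or AsPC-1 library 1 and 6 without AsPC-1 library 2. DYNC2H1, the motor of retrograde transport in cilia, had 37.6, 35.5 and 32.4 CPM in PANC-1 and 3.04 and 4.01 CPM in AsPC-1 (log2 fold change -3.33 ± 0.15 SE, adjusted p = 3.80e-11 by edgeR), and IFT27 had 56.4, 48.6 and 54 CPM in PANC-1 and 8.33 and 9.65 CPM in AsPC-1 (log2 fold change -2.57 ± 0.11 SE, adjusted p = 4.73e-11 by edgeR). GLI3, a transcription factor of hedgehog signalling, had 2.69, 2.01 and 2.67 CPM in PANC-1 and 0.0778 and 0 CPM in AsPC-1, whereas GLI2 (42.4 against 12.6 CPM) and PTCH1 (19.5 against 7.91 CPM) were over 2-fold higher in AsPC-1. LCA5L, the paralog of LCA5, had 2.1 and 2.55 CPM in AsPC-1 and 0.984, 2.01 and 1.66 CPM in PANC-1 and was not called. Of the 63 genes, LCA5 had 0 counts in both AsPC-1 libraries.

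In the list of amino acid and one-carbon metabolism, 41 of 47 genes were tested, 8 were over 2-fold higher in AsPC-1 and 14 in PANC-1 (median -0.22). With either AsPC-1 library left out, the first number was 5. Of the 31 present in both lines, 5 were over 2-fold higher in AsPC-1 and 7 in PANC-1. Of the tested members 2, PHGDH and GLUL, had 0 counts in AsPC-1 (4.88%), against 3.94% of all tested genes. PHGDH, the first enzyme of serine synthesis from glucose (chromosome 1, 119648411 to 119744226), had 76, 64.3 and 74.1 CPM in PANC-1, or 1159, 865 and 1164 counts, and 0 counts in both AsPC-1 libraries. It was at least 684-fold higher in PANC-1. The next enzymes of the pathway were present in both lines: PSAT1 had 136, 150.4 and 149 CPM in PANC-1 and 28.3 and 27.3 CPM in AsPC-1 (log2 fold change -2.38 ± 0.08 SE, adjusted p = 1.83e-12 by edgeR), and PSPH had 50.6, 53.4 and 48.5 CPM in PANC-1 and 41.8 and 39.5 CPM in AsPC-1 (log2 fold change -0.32 ± 0.08 SE, adjusted p = 0.0024 by edgeR).

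GLUL, glutamine synthetase, had 17.4, 15.9 and 15.9 CPM in PANC-1 and 0 counts in AsPC-1 (at least 156-fold). CBS, the first enzyme of transsulfuration, had 34.8, 37.3 and 22.5 CPM in PANC-1 and 0.0778 and 0 CPM in AsPC-1. BCAT1, the cytosolic branched-chain aminotransferase, had 23.7, 26.4 and 23.2 CPM in PANC-1 and 0.0778 and 0.182 CPM in AsPC-1, and its mitochondrial counterpart BCAT2 had means of 50.5 against 31.7 CPM. ASS1 and ASL of the urea cycle were over 2-fold higher in AsPC-1 (16.8 against 6.22 CPM and 90.6 against 21.8 CPM). SHMT2 (174 against 124 CPM), MTHFD1 (166 against 158 CPM) and MAT2A (1020 against 1002 CPM) stood within 2-fold of each other.

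Of 27 tested glycolysis genes, 2 were over 2-fold higher in AsPC-1 and 6 in PANC-1 (median 0.27). The first number was 4 with DESeq2 or RLE scaling and without PANC-1 library 3, since PFKM (139.8 against 70 CPM) and PFKL (176 against 88.8 CPM) lie close to 2-fold. Of the 24 present in both lines, 1 was over 2-fold higher in AsPC-1 and 4 in PANC-1. GAPDH (2432 against 1755 CPM), PKM (2324 against 1761 CPM) and LDHA (1592 against 1438 CPM) differed by less than 2-fold. FBP1, fructose-1,6-bisphosphatase of gluconeogenesis, had 99.5 and 93.4 CPM in AsPC-1 and 0 counts in PANC-1 (at least 1193-fold). LDHB, the heart-type lactate dehydrogenase, had 6.43, 6.32 and 7.26 CPM in PANC-1 and 0 counts in AsPC-1 (at least 63.7-fold). The lactate exporter SLC16A3 had 285, 253 and 322 CPM in PANC-1 and 62.7 and 67.9 CPM in AsPC-1 (log2 fold change -2.14 ± 0.09 SE, adjusted p = 4.61e-11 by edgeR), and SLC2A3 (0.169 against 2.58 CPM) was low in both lines beside SLC2A1.

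**Figure D3:**
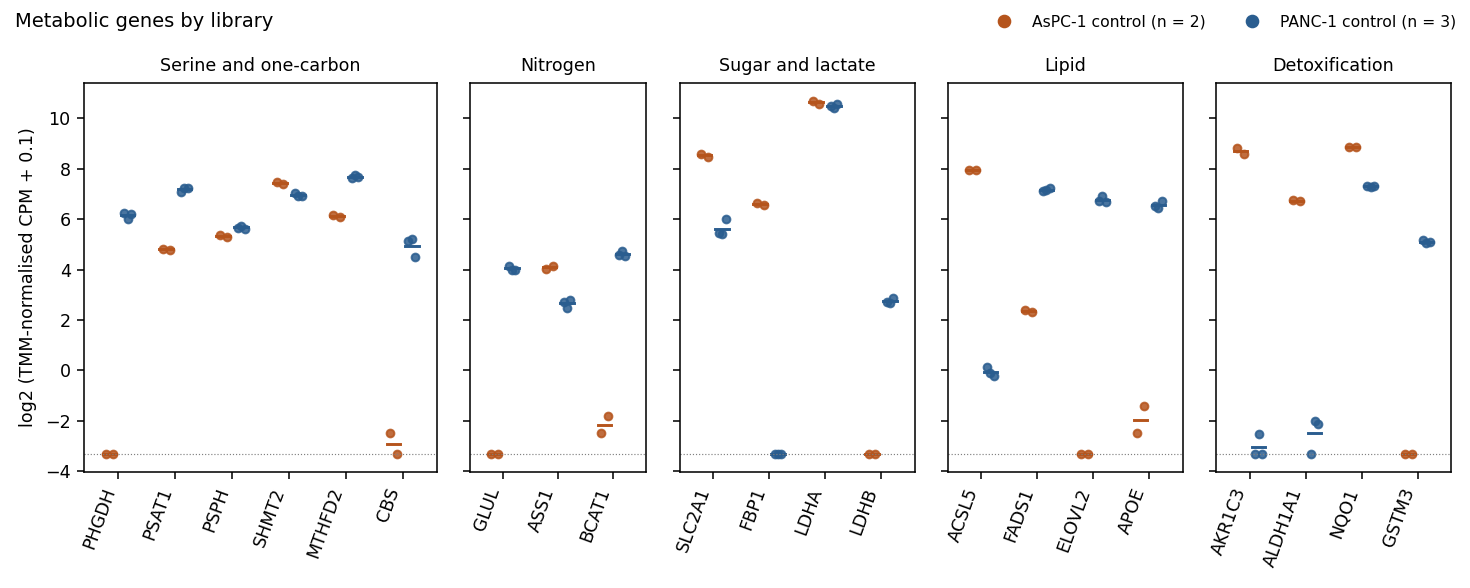
Level of 21 metabolic genes in each control library, as log2 (TMM-normalised CPM + 0.1), with 2 AsPC-1 points and 3 PANC-1 points per gene, a line at the mean of the log2 values and a dotted line at 0 counts. PHGDH, GLUL, LDHB, ELOVL2 and GSTM3 lie at 0 counts in AsPC-1 and FBP1 at 0 counts in PANC-1, while LDHA, PSPH and SHMT2 lie close in both lines.

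Of 41 tested genes of fatty acid and cholesterol metabolism, 6 were over 2-fold higher in AsPC-1 and 11 in PANC-1 (median -0.17). Of the 34 present in both lines, 4 were over 2-fold higher in AsPC-1 and 7 in PANC-1. ACSL5, which activates fatty acids, had 249 and 245 CPM in AsPC-1 and 0.984, 0.818 and 0.764 CPM in PANC-1 (log2 fold change 8.16 ± 0.11 SE, adjusted p = 1.76e-16 by edgeR). ELOVL2 and FADS1 act in the synthesis of long polyunsaturated fatty acids, and both were higher in PANC-1. ELOVL2 had 104, 122 and 101 CPM there and 0 counts in AsPC-1 (at least 1035-fold), and FADS1 had 138, 143 and 152 CPM in PANC-1 and 5.14 and 4.83 CPM in AsPC-1 (log2 fold change -4.85 ± 0.10 SE, adjusted p = 1.43e-14 by edgeR). APOE had 91.6, 86 and 104 CPM in PANC-1 and 0.0778 and 0.273 CPM in AsPC-1 (log2 fold change -9.05 ± 0.23 SE, adjusted p = 1.08e-13 by edgeR). The cholesterol enzyme SQLE (83.3 against 78.2 CPM) was not called, and FASN (368 against 759.6 CPM) was over 2-fold higher in PANC-1.

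Of 46 tested detoxification and redox enzymes, 22 were over 2-fold higher in AsPC-1 and 9 in PANC-1 (median 0.86). Of these 46, 12 reached 1 CPM in AsPC-1 libraries alone, and of the 30 present in both lines 10 were over 2-fold higher in AsPC-1 and 5 in PANC-1. With AsPC-1 library 1 left out the first count was 10, and with library 2 left out it was 11. AKR1C3, an aldo-keto reductase of steroids and carbonyls, had 448 and 383 CPM in AsPC-1 and 0, 0.0743 and 0 CPM in PANC-1. AKR1C1, AKR1C2 and AKR1C4 lie beside it in a run of 6 genes on chromosome 10 (4963253 to 5458463), but their sequences are alike and the counting may have split reads between them. ALDH1A1 had 108 and 105 CPM in AsPC-1 and 0, 0.149 and 0.127 CPM in PANC-1, ALDH3A1 had 85.2 and 84.3 CPM in AsPC-1 and 0, 0 and 0.127 CPM in PANC-1, and NQO1 had 464 and 463 CPM in AsPC-1 and 161, 156 and 160.1 CPM in PANC-1 (log2 fold change 1.54 ± 0.05 SE, adjusted p = 2.11e-12 by edgeR).

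CYP3A5, a drug-metabolising cytochrome, had 173 and 168 CPM in AsPC-1 and 1.05, 0.446 and 0.764 CPM in PANC-1 (log2 fold change 7.78 ± 0.13 SE, adjusted p = 1.56e-15 by edgeR), and MGST1 had 179 and 169.9 CPM in AsPC-1 and 4, 4.61 and 3.69 CPM in PANC-1 (log2 fold change 5.42 ± 0.09 SE, adjusted p = 1.76e-15 by edgeR). Enzymes of the same classes were higher in PANC-1: CYP1B1 had 335, 415 and 326 CPM in PANC-1 and 14.6 and 14.8 CPM in AsPC-1 (log2 fold change -4.61 ± 0.12 SE, adjusted p = 1.37e-13 by edgeR), AKR1B1 had 49.9, 45.5 and 48.1 CPM in PANC-1 and 0 and 0.273 CPM in AsPC-1, and GSTM3 had 35.5, 33 and 33.7 CPM there and 0 counts in AsPC-1. HMOX1 (8.93 against 80.5 CPM) was also over 2-fold higher in PANC-1, whereas GSTP1 (192 against 246 CPM) stood within 2-fold.

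Transcripts of the mitochondrial genome made up 13.9% and 13.2% of counts in AsPC-1 and 6.53%, 6.52% and 6.82% in PANC-1. The ranges do not overlap, and with 2 against 3 libraries the exact permutation test gave p = 0.2 (two-sided), the smallest p it can give here. Of the 13 mitochondrial mRNAs 9 were over 2-fold higher in AsPC-1 and 0 in PANC-1 (median 1.15), which falls to 4 with library totals as the only scaling. MT-CO1, a subunit of cytochrome oxidase, had 35144 and 32514 CPM in AsPC-1 and 15184, 14876 and 15714 CPM in PANC-1 (log2 fold change 1.15 ± 0.05 SE, adjusted p = 2.13e-11 by edgeR). Ribosomal protein genes together took 3.02% and 3.07% of counts in AsPC-1 and 3.05% to 3.31% in PANC-1. The share includes RPS16 of the chromosome 19 stretch below (4702, 4155 and 4681 CPM in PANC-1, 364 and 372 CPM in AsPC-1). RPS16 alone differed between the lines by more than these shares did. The shares thus do not show that the other ribosomal protein genes were alike, and a share without RPS16 was not counted.

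Genes without RNA in 1 of the lines were defined as those with 0 counts in every library of that line and at least 5 CPM in every library of the other. AsPC-1 lacked 252 of the 10916 genes that PANC-1 held at that level (2.31%), and PANC-1 lacked 75 of 10434 (0.719%). Of these, 220 and 54 were protein-coding. A count of 0 over a line's libraries allows a level of up to 0.113 CPM in AsPC-1 and 0.0726 CPM in PANC-1, a limit that covers counting error only. The AsPC-1 libraries hold fewer counts in sum than the 3 of PANC-1, and with only libraries 1 and 2 of PANC-1 the numbers were 256 and 105.

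Of the genes at 0 in AsPC-1, MEG3, an imprinted long noncoding RNA, stood highest in PANC-1 with 297, 298 and 279.7 CPM (at least 2775-fold). It was followed by FBXO27, an F-box protein (274 CPM), KIF1A, a kinesin of axonal transport (269.7), SPARC, PRAME, a tumour antigen (218), MRC2, a collagen uptake receptor (189), MMP2, the chemokine CCL2 (160.2), BASP1 (139.7) and ELOVL2. Their bounds ran from 1035-fold to 2775-fold.

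Of the genes at 0 in PANC-1, POF1B, an actin-binding protein of epithelial junctions, stood highest in AsPC-1 with 262 and 252 CPM (at least 3176-fold). It was followed by GPA33, the intestinal A33 antigen (203 CPM), MGAM2 (200.1), EPS8L3 (149), TMEM176A (130.4), GABRE, a GABA receptor subunit (128), DDC, aromatic amino acid decarboxylase (126), TMEM176B (118), KLK11 (116) and A1CF, a cofactor of RNA editing (105). Their bounds ran from 1295-fold to 3176-fold.

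Promoter sequence was examined for these genes because CpG-rich promoters are the class at which DNA methylation is known to silence genes in cancer. Methylation was not measured. RefSeq promoters on GRCh38.p14, 250 bases before to 50 after a start, were matched by symbol, and a gene was counted as CpG-rich where any listed start had at least 50% G and C and an observed-to-expected ratio of the dinucleotide CG, which reads the same on both strands, of at least 0.6. Of the 220 protein-coding genes at 0 in AsPC-1, 176 matched and 140 of these were CpG-rich (79.5%), against 91.3% of 8635 matched genes that reached 5 CPM in every PANC-1 library and 50.2% of all 27305 genes of the table. For genes at 0 in PANC-1 the check is void, since 43 of 54 matched (79.6%, under the 80% required, which the AsPC-1 set just met). Of those 43, 14 were CpG-rich (32.6%), against 89.9% of 8218 matched genes that reached 5 CPM in every AsPC-1 library. With the coverage under the limit, nothing is concluded from that share. At least 1 CG is found in 96% of the table's promoters.

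The promoters of 4 of these genes are printed as examples, each written in the direction of its gene with every CG in capitals. TMEM176A and POF1B, which are at 0 in PANC-1 and not printed, had 26 and 4 CG, and TMEM176A is CpG-rich. PHGDH and ZNF568 are CpG-rich genes at 0 in AsPC-1, with 15 and 25 CG. SPARC is at 0 in AsPC-1 with 11 CG and is not CpG-rich by the limits above, and GPA33 is at 0 in PANC-1 with 0 CG. Their windows are chr1:119711684-119711983 (plus strand), chr19:36916082-36916381 (plus strand), chr5:151686866-151687165 (minus strand) and chr1:167090328-167090627 (minus strand), from RefSeq on GRCh38.p14.
PHGDH: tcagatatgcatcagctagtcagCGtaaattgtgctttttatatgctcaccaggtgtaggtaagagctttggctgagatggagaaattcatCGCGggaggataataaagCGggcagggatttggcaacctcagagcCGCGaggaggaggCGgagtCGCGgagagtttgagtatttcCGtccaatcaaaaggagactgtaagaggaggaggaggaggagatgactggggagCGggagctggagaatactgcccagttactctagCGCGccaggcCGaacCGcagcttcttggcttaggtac
ZNF568: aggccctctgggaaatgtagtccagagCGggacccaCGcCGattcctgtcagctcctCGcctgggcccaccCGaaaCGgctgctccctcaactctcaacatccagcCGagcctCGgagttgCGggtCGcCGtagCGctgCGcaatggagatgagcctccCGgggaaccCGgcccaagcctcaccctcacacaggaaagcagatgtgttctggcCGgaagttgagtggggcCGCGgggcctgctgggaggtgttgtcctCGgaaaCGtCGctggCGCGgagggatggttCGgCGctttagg
SPARC: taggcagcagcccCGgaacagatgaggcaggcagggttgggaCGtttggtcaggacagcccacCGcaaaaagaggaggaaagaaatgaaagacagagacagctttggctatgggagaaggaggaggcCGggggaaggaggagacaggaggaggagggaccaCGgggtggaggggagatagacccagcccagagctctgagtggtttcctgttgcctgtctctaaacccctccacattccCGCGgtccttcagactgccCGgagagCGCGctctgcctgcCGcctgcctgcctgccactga
GPA33: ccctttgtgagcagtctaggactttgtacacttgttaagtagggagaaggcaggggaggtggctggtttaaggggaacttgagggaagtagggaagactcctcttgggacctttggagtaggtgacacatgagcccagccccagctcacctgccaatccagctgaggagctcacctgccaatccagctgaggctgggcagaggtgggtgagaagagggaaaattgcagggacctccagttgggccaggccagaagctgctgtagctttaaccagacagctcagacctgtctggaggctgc
A CG in these windows is a feature of the reference sequence and says nothing of the DNA of these cells.

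Genes known to be methylated in cancers were counted apart, in a list chosen with earlier results of these data known. Of 45 listed, 5 had 0 counts in all 5 libraries, 17 had 0 counts in AsPC-1 alone (37.8%) and 0 in PANC-1 alone. Over all 19906 protein-coding genes these shares were 15.9% in all 5, 9.83% in AsPC-1 alone and 2.91% in PANC-1 alone, with 26583738 counts summed over the AsPC-1 libraries and 41294179 over those of PANC-1. Of the listed genes 20 were tested, 3 over 2-fold higher in AsPC-1 and 9 in PANC-1, and 10 of the 20 reached 1 CPM in PANC-1 libraries alone. Of the 9 present in both lines, 2 were over 2-fold higher in AsPC-1 and 0 in PANC-1. SFRP1, a secreted Wnt antagonist, had 53, 57.8 and 54.6 CPM in PANC-1 and 0 counts in AsPC-1, and TSPYL5 (46.9, 45.4 and 49.8 CPM) showed the same. DKK3 had 64.9, 63.3 and 67.2 CPM in PANC-1 and 0.856 and 0.911 CPM in AsPC-1 (log2 fold change -6.19 ± 0.15 SE, adjusted p = 5.42e-14 by edgeR). IGFBP3, which binds insulin-like growth factors, was the member with the largest difference towards AsPC-1, with 917 and 902 CPM in AsPC-1 and 4.72, 4.01 and 6.56 CPM in PANC-1 (log2 fold change 7.46 ± 0.10 SE, adjusted p = 3.11e-16 by edgeR). MGMT (24.7 against 14.7 CPM) was present in both lines.

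Among genes often deleted in pancreatic cancer, the cluster on chromosome 9p21 was low in PANC-1. CDKN2A, which encodes the inhibitors p16 and p14ARF (chromosome 9, 21967753 to 21995301), had 106 and 112 CPM in AsPC-1 and 0.721, 0.372 and 0.191 CPM in PANC-1 (log2 fold change 7.96 ± 0.17 SE, adjusted p = 1.56e-14 by edgeR). CDKN2B, the p15 gene, had 24.3 and 23.9 CPM in AsPC-1 and 0, 0.0743 and 0 CPM in PANC-1, and MTAP, the methylthioadenosine phosphorylase next to them, had 68.7 and 75.8 CPM in AsPC-1 and 0.459, 0.0743 and 0.382 CPM in PANC-1 (log2 fold change 7.80 ± 0.19 SE, adjusted p = 6.13e-14 by edgeR). The nearest tested neighbours stood within 2-fold in the 2 lines: KLHL9 had 27.1 against 23.2 CPM, FOCAD 14.1 against 19.2 CPM and DMRTA1 3.7 against 4.05 CPM. IFNE, which lies between KLHL9 and MTAP and was not tested, had 1.2 against 0.161 CPM. The next tested genes further out lay the other way, with MLLT3 (0 against 1.16 CPM) and TUSC1 (0 against 5.27 CPM) at 0 counts in AsPC-1.

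On chromosome 17, MAP2K4, a kinase upstream of JNK (chromosome 17, 12020824 to 12143830), had 35.2, 32.3 and 35.1 CPM in PANC-1 and 0 counts in AsPC-1 (at least 327-fold). Its neighbour ZNF18 had 11.1, 13.2 and 11.4 CPM and 0 counts likewise, and these are the only 2 of the 7 tested genes from SCO1 to ELAC2 at 0 in AsPC-1. The tested genes next to them were also called in the direction of PANC-1: TMEM220 had 2.17 against 5.63 CPM (log2 fold change -1.37, adjusted p = 2.54e-05 by edgeR) and ARHGAP44, low in both lines, had 2 and 0 counts in AsPC-1 and 22, 21 and 21 counts in PANC-1. Farther out, ADPRM (2.16 against 3.54 CPM), SCO1 (65 against 58.7 CPM) and ELAC2 (82.4 against 106 CPM) stood within 2-fold. SMARCA4, an ATPase of chromatin remodelling, had 191 and 197 CPM in AsPC-1 and 28.8, 25.4 and 27.1 CPM in PANC-1 (log2 fold change 2.84 ± 0.07 SE, adjusted p = 7.33e-14 by edgeR). SMAD4 had 24.6 and 23.5 CPM in AsPC-1 and 24.9, 28.1 and 26.4 CPM in PANC-1 and was not called. Of the 28 tested genes of the list 9 were over 2-fold higher in AsPC-1 and 4 in PANC-1, and of the 22 present in both lines 4 and 3 were. With either AsPC-1 library left out, the first number was 4. Gene copies were not measured.

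Runs of at least 4 neighbouring tested protein-coding genes, each called and at least 4-fold lower in the same line, numbered 39 and held 202 genes, 25 runs lower in AsPC-1 and 14 lower in PANC-1. Of the 137 genes in runs lower in AsPC-1, 91 reached 1 CPM in PANC-1 libraries alone, and of the 65 in runs lower in PANC-1, 44 reached it in AsPC-1 libraries alone. Chromosome 19 held 14 of the 25 runs lower in AsPC-1, with 86 genes, and 1 run lower in PANC-1, the 6 kallikrein genes KLK1, KLK6, KLK7, KLK8, KLK10 and KLK11. The median log2 fold change of the 977 tested protein-coding genes of chromosome 19 was -0.46, and that of chromosome 6 was lower at -0.57.

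Zinc finger genes named ZNF or ZFP made up much of the chromosome 19 runs and were counted after these values were seen. Of 216 tested on chromosome 19, 119 were over 2-fold lower in AsPC-1 (55.1%) and 4 higher, and 39 had 0 counts in both AsPC-1 libraries (median -1.30). Of 242 tested on other chromosomes, 54 were over 2-fold lower in AsPC-1 (22.3%) and 23 higher (median -0.27), against 22.2% and 17.7% of all tested genes. Among those present in both lines, 57 of 153 on chromosome 19 (37.3%) and 35 of 216 elsewhere (16.2%) were over 2-fold lower in AsPC-1, against 13.5% of all such genes. ZNF568, whose promoter is printed above, had 13.8, 14.6 and 15.2 CPM in PANC-1 and 0 counts in AsPC-1 (at least 139-fold).

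In the run of 8 genes from ZNF93 to ZNF85 (chromosome 19, 19900913 to 20950697), 7 had 0 counts in AsPC-1 and ZNF93 had 1. ZNF331 (50.4, 48.8 and 48.7 CPM in PANC-1) and ZNF607 (14.8, 17.5 and 16.3) were other members at 0 in AsPC-1. CpG-rich promoters were found for 83 of the 107 matched chromosome 19 zinc finger genes lower in AsPC-1 (77.6%) and for 69 of 84 that were not over 2-fold apart (82.1%). Zinc finger genes share repeated sequence, so reads that fit several genes may be missing from the counts of both lines.

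**Figure D4:**
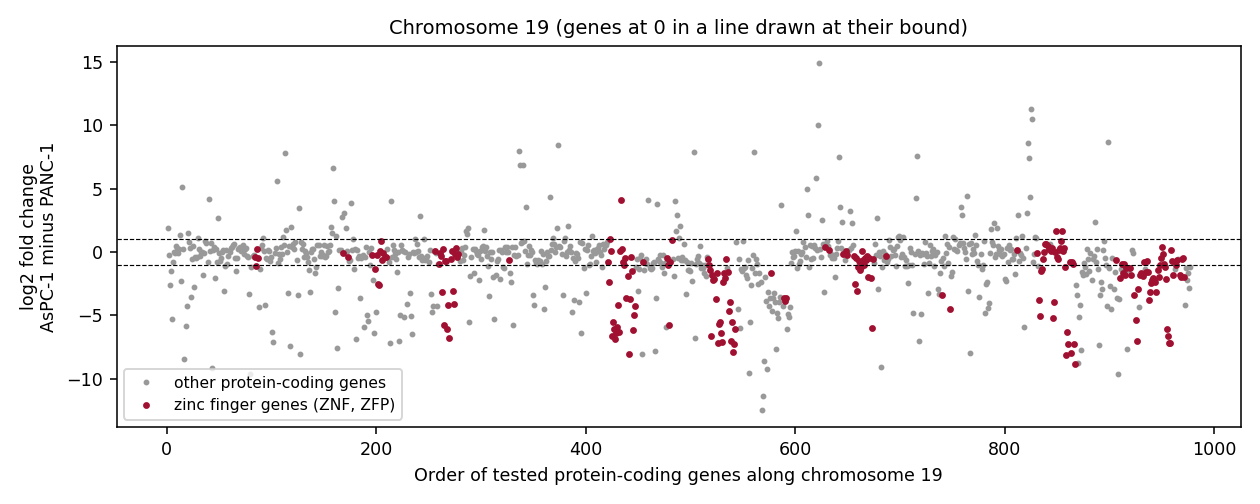
Log2 fold change (AsPC-1 minus PANC-1) of each tested protein-coding gene of chromosome 19 in order of position, with zinc finger genes in red, other genes in grey, genes at 0 in a line at their bound, and dashed lines at a 2-fold difference. Red points lie below the lower line in several groups along the chromosome, and a block of grey points below the lower line marks the stretch from MRPS12 to AKT2.

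A second pattern on chromosome 19 was a stretch of high level in PANC-1. From MRPS12 to AKT2 (38930548 to 40285536) 29 protein-coding genes were tested, and 28 were over 2-fold higher in PANC-1 and 1 in AsPC-1 (median -4.26). The stretch was chosen after its values were seen, from 4 adjoining runs. AKT2, a kinase of the PI3K pathway and a known amplification target of pancreatic cancer, had 2222, 2043 and 2109.9 CPM in PANC-1 and 100.2 and 105 CPM in AsPC-1 (log2 fold change -4.37 ± 0.06 SE, adjusted p = 5.55e-16 by edgeR). RPS16, a ribosomal protein gene, had 4702, 4155 and 4681 CPM in PANC-1 and 364 and 372 CPM in AsPC-1 (log2 fold change -3.62 ± 0.07 SE, adjusted p = 3.85e-15 by edgeR).

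PAF1 (56.9 against 1088 CPM), SUPT5H (144 against 1389.8 CPM), PSMC4 (75.3 against 1488 CPM) and FBL (151 against 1821 CPM), which serve transcription, the proteasome and the nucleolus, and PLEKHG2 (63.7 against 1655 CPM) showed the same direction. The stretch took 2.19%, 2.00% and 2.11% of all counts in PANC-1 and 0.139% and 0.144% in AsPC-1. FCGBP, an IgG-binding mucus protein, was the gene inside it on the other side (94 against 6.94 CPM). Before MRPS12 the tested genes were also higher in PANC-1, with NFKBIB at 22.2 against 130.4 CPM (log2 fold change -2.55), SARS2 at 2.77 against 8.78 CPM (-1.66) and SIRT2 at 58.9 against 117 CPM (-0.99), so the stretch starts at MRPS12 because SARS2 falls short of the 4-fold limit for a run. Beyond AKT2, C19orf47 had 12.9 against 23.8 CPM and PLD3 58.7 against 58 CPM. Of the 9 tested genes from C19orf47 to LTBP4, BLVRB was over 2-fold higher in AsPC-1 (74.8 against 23.2 CPM), SPTBN4 in PANC-1 (0.883 against 2.12 CPM), and 7 were within 2-fold. Copy number was not measured.

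**Figure D5:**
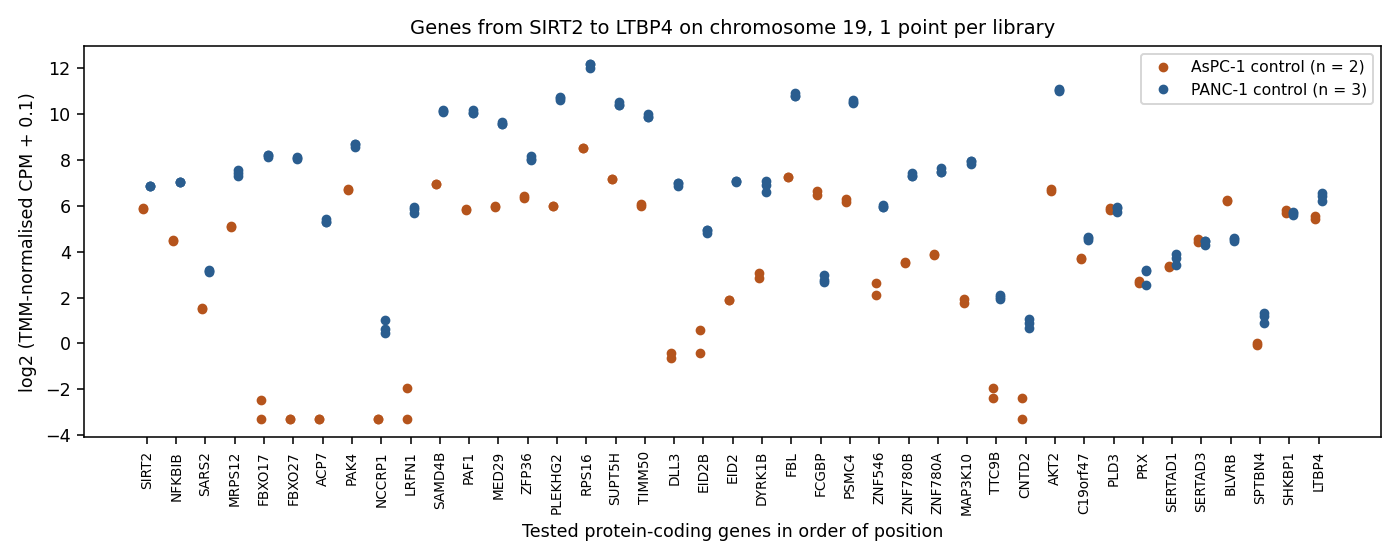
Level of each tested protein-coding gene from SIRT2 to LTBP4 on chromosome 19 in order of position, as log2 (TMM-normalised CPM + 0.1), with 1 point for each of 2 AsPC-1 and 3 PANC-1 control libraries. PANC-1 points lie above AsPC-1 points from SIRT2 to AKT2 except at FCGBP, and from C19orf47 on the lines differ by less than 2-fold except at BLVRB and SPTBN4.

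A shorter stretch on chromosome 7 (98877933 to 99394816) was high in AsPC-1, with all 6 of its tested genes over 2-fold higher there (median 3.55). TRRAP, a scaffold of histone acetyltransferases, had 1506 and 1494 CPM in AsPC-1 and 186, 179.9 and 179.9 CPM in PANC-1 (log2 fold change 3.04 ± 0.05 SE, adjusted p = 1.21e-15 by edgeR). SMURF1, a ubiquitin ligase of TGF-beta signalling and a known amplification target of pancreatic cancer, had 846 and 814 CPM in AsPC-1 and 80.4, 74.2 and 80.6 CPM in PANC-1 (log2 fold change 3.40 ± 0.06 SE, adjusted p = 1.56e-15 by edgeR). ARPC1A and ARPC1B, subunits of the Arp2/3 actin complex, had means of 256 against 26.8 CPM and 91.8 against 6.77 CPM, and the next gene, PDAP1, had 153 against 193 CPM. On the other side the elevation went on: the 5 tested genes from LMTK2 to BAIAP2L1 were all over 2-fold higher in AsPC-1, among them LMTK2 (457 against 63.3 CPM), BRI3 (229 against 49.9 CPM) and BAIAP2L1 (725 against 195 CPM), and TECPR1 had the smallest difference of them (72.7 against 29.5 CPM). The stretch of 6 genes is thus bounded there by the 4-fold limit and not by a return to equal levels. The 6 genes took 0.242% of counts in both AsPC-1 libraries and 0.0311% to 0.0325% in PANC-1.

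Growth factor receptors and ligands were split, with 14 of 37 tested over 2-fold higher in AsPC-1 and 12 in PANC-1 (median 0.28). Of the 25 present in both lines, 9 were over 2-fold higher in AsPC-1 and 5 in PANC-1. ERBB3, a receptor of neuregulin, had 302 and 318 CPM in AsPC-1 and 4, 3.2 and 4.27 CPM in PANC-1 (log2 fold change 6.33 ± 0.09 SE, adjusted p = 4.33e-16 by edgeR), and the neuregulin gene NRG1 had 39.2, 39.5 and 38.5 CPM in PANC-1 and 0 and 0.0911 CPM in AsPC-1. FGF19, an intestinal hormone of bile acid control, had 145 and 148 CPM in AsPC-1 and 0.131, 0 and 0.191 CPM in PANC-1 (log2 fold change 10.23 ± 0.18 SE, adjusted p = 2.04e-15 by edgeR). MET had 814 and 806 CPM in AsPC-1 and 169.5, 181 and 171 CPM in PANC-1 (log2 fold change 2.22 ± 0.05 SE, adjusted p = 4.53e-14 by edgeR), while its ligand HGF had 4.46, 6.76 and 5.79 CPM in PANC-1 and 0 counts in AsPC-1. EGFR had 792 against 399 CPM, called with less than 2-fold between the lines.

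Antigen presentation genes had 3 of 19 tested members over 2-fold higher in AsPC-1 and 5 in PANC-1. Of the 18 present in both lines, 3 were over 2-fold higher in AsPC-1 and 4 in PANC-1. HLA-C had 88.7, 79.4 and 90.7 CPM in PANC-1 and 12.5 and 13 CPM in AsPC-1 (log2 fold change -2.76 ± 0.10 SE, adjusted p = 3.52e-12 by edgeR), and MICB, a ligand of the NKG2D receptor, had 79.7, 81.2 and 86.6 CPM in PANC-1 and 0.934 and 0.911 CPM in AsPC-1 (log2 fold change -6.47 ± 0.15 SE, adjusted p = 2.62e-14 by edgeR). HLA genes are polymorphic and alike in sequence, so their counts depend on how well each line's alleles match the reference. B2M was present in both lines (453 against 605 CPM). Of 24 neuroendocrine genes 9 were tested, 2 over 2-fold higher in AsPC-1 and 7 in PANC-1. Of these 9, 5 reached 1 CPM in PANC-1 libraries alone, and of the 4 present in both lines 2 and 2 were over 2-fold higher in AsPC-1 and PANC-1. The AsPC-1 number was 1 without PANC-1 library 2. SYT1, a synaptotagmin of secretory vesicles, had 52.8, 52.2 and 46.4 CPM in PANC-1 and 0 counts in AsPC-1, and SYP had 16.7, 17.3 and 20.3 CPM in PANC-1 and 1.09 and 1.55 CPM in AsPC-1. CHGA, the main secretory granule marker, was near 0 in both lines (0.0845 against 0.0212 CPM), and SSTR5 was higher in AsPC-1 (32.5 against 1.54 CPM).

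The largest differences among called protein-coding genes with at least 10 counts in every library were of both kinds. Towards AsPC-1 they were led by SERPINE2, a protease inhibitor of the extracellular space, with 1311 and 1296 CPM in AsPC-1 and 3.08, 3.49 and 2.93 CPM in PANC-1 (log2 fold change 8.69 ± 0.08 SE, adjusted p = 4.63e-18 by edgeR), and continued with MTUS1, ACSL5, LGALS4, CREB3L3, CDH17, INPP5D, IGFBP3, PLEKHA6 and EPCAM, the last with a log2 fold change of 7.40. Towards PANC-1 they were led by CD24, a glycosylated surface protein, with 334, 369.9 and 372 CPM in PANC-1 and 1.56 and 1 CPM in AsPC-1 (log2 fold change -8.10 ± 0.13 SE, adjusted p = 1.22e-15 by edgeR). CD24 has near-identical copies in the genome, so its counts are uncertain. It was followed by PLCH2, RFLNB, TNNT1, FKBP10, LOXL2, CRABP2, VPS35L, MICB and MFGE8, the last with a log2 fold change of -6.42.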

How the data were processed

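Poly(A) RNA was sequenced as paired reads on an Illumina HiSeq, per the labels' protocols. The authors deposited whole-number counts per gene without normalization, 1 table per library. The submitters' processing notes name HISAT2, HTSeq and hg19 with no versions or roles. All 58735 identifiers occur in GENCODE 29, whose GRCh38 names and positions were used. The deposited tables hold no coordinates. Whether counting used strand is not given. Of the 1020 genes listed or named, 333 overlap an exon on the opposite strand (MYB, CDH1, ZEB1, VIM, SPARC and CDKN2A among them) and 172 on the same strand, and their reads may be shared.

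Groups came from the sample titles. The 5 control libraries (12127194 to 14541631 counts) were fitted alone in edgeR 4.0.16 (R 4.3.3; TMM, glmQLFit, glmQLFTest, two-sided) with Benjamini-Hochberg adjustment over 15269 genes. The biological coefficient of variation was 5.99%. The standard error is the absolute log2 fold change divided by the square root of F. Replicates differed by more than Poisson noise, so no library was a duplicate. The fit was tested on simulated data in which few genes differed and the spread and scaling came from the fit itself. A setting where most genes differ, as between these lines, was not tested. Genes at 0 counts get a bound against 3 counts over the line, and genes with 1 to 3 counts an exact 95% interval of the ratio. Both use library totals without TMM factors, as do the limits of 1 and 5 CPM. Alternatives were other scalings, filters, DESeq2 1.42.0, glmTreat, a replicate block and leaving out each library. Python 3.11.15, pandas 2.3.3, scipy 1.17.1 and matplotlib 3.10.9 were used.

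The 29 lists (809 symbols) and the members were chosen with earlier results of these data known. GSTT1 and IGF2 could not be matched to 1 identifier. Named by rule were the markers, the 10 largest changes in each direction (10 counts in every library, mean log2 CPM of 3), the 10 highest genes at 0 per line, up to 3 members of each list by change and 2 by level, and genes of runs. Other list members, the zinc finger count and the stretches on chromosomes 7, 9, 17 and 19 were chosen after their values were seen. Genes that mark sex and some other list members are not reported by name here.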

Additional observations from a re-analysis of the deposited data

How the results depend on the processing

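A test against a 1.5-fold change (glmTreat) called 7264 of 15269 genes, 3331 higher in AsPC-1 and 3933 in PANC-1. Leaving out 1 library gave 9764 to 12134 called genes, 4438 to 5800 higher in AsPC-1 and 5326 to 6334 in PANC-1. Over 2-fold it gave 5154 to 6041 genes, 1909 to 2720 higher in AsPC-1 and 3231 to 3321 in PANC-1. The low AsPC-1 counts come from the filter, since a gene of 1 remaining AsPC-1 library cannot reach 1 CPM in 2 libraries. With the genes of the main filter kept, an alternative chosen after seeing the data, 6042 to 6167 genes were over 2-fold, 2680 to 2768 higher in AsPC-1 and 3345 to 3399 in PANC-1, and 10640 to 12261 were called (5038 to 5900 and 5602 to 6361).

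Genes at 0 in AsPC-1 numbered 537 with 1 CPM required in the other line, and those at 0 in PANC-1 numbered 172. With at most 1 count allowed, PANC-1 had 125. Leaving out 1 library gave 256 to 316 and 77 to 105, and 2 PANC-1 libraries in place of 3, chosen after seeing the data, gave 256 and 105. Runs numbered 114 with at least 3 genes and 136 at 2-fold. The difference in mitochondrial share was 6.54 to 7.32 percentage points without 1 library.

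Of 1160 list counts under the alternatives, 57 moved by over 1.5 times, 24 of them without an AsPC-1 library under the filter named above and 10 with a filter of 5 CPM. Classical genes over 2-fold higher in AsPC-1, for example, were 2 without an AsPC-1 library and 18 without the filter. Reversals among named genes were KMT2D with library totals only (-0.078), and MAT2A with upper-quartile scaling (-0.069), library totals only (-0.24), without PANC-1 library 2 (-0.0034) and without AsPC-1 library 1 at the main filter (-0.00029). Without 1 library MAT2A ranged from -0.0034 to 0.11. KMT2D lost its call in 7 alternatives, and the cause was not tested. SCD gained one in 9, and ZEB1, MYBL2, GAPDH, PKM and B2M lost theirs under glmTreat. The replicate numbers did not pair the libraries (correlations of deviations -0.00107 and 0.0282). With the replicate block 11456 genes were called and 6121 were over 2-fold.

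Depth limits the genes at 0 to levels under 0.113 CPM in AsPC-1 and 0.0726 CPM in PANC-1. With 2 and 3 libraries of 1 line each, nothing separates the line from its medium.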

Other observations

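Gene families outside the lists also divided between the lines, and were chosen after their values were seen. Of 9 tested HOXA genes, which pattern the body axis, 5 were over 2-fold higher in AsPC-1 and 2 in PANC-1. Of these 9, 3 reached 1 CPM in AsPC-1 libraries alone, so the filter fixed their direction. Of the 6 present in both lines, 2 were over 2-fold higher in AsPC-1 and 2 in PANC-1. HOXA13 had 86 and 79.8 CPM in AsPC-1 and 3.21, 3.27 and 3.88 CPM in PANC-1. All 9 HOXD genes had 0 counts in both AsPC-1 libraries, and in PANC-1 the highest, HOXD8, had 0.59, 0.669 and 0.828 CPM, so 0 of them reached the filter. HOXB genes had 0 of 9 tested over 2-fold higher in AsPC-1 and 3 in PANC-1, and HOXC genes 0 and 5 of 8.

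Kallikrein genes, secreted proteases of chromosome 19, had 6 tested members, and all 6 reached 1 CPM in AsPC-1 libraries alone, so the filter fixed their direction. KLK10 was the highest of them, with 252 and 244 CPM in AsPC-1 and 0.0656, 0.149 and 0.0637 CPM in PANC-1. S100A genes, which encode small calcium-binding proteins, had 11 tested, with 7 over 2-fold higher in AsPC-1 and 0 in PANC-1, and 5 of the 9 present in both lines. Serpin B genes had 4 of 5 tested over 2-fold higher in AsPC-1 and 0 in PANC-1, and 3 of the 4 present in both lines. Clustered protocadherins, adhesion proteins of neurons, had 19 tested, of which 2 reached 1 CPM in AsPC-1 libraries alone and 10 in PANC-1 libraries alone. Among the 7 present in both lines, 3 were over 2-fold higher in AsPC-1 and 1 in PANC-1. MAGE genes had 5 tested members, and no MAGEA, MAGEB or MAGEC gene was among them. MAGEF1, MAGED1 and MAGED2 were present in both lines, and MAGEF1 and MAGED1 were over 2-fold higher in PANC-1. MAGEH1 and MAGEE1 reached 1 CPM in PANC-1 libraries alone. The UGT1A genes, glucuronosyltransferases, had 0 counts in every PANC-1 library for all 9 members. Over all protein-coding genes, 18.8% had 0 counts in PANC-1. The 3 tested UGT1A members all reached 1 CPM in AsPC-1 libraries alone, so the filter fixed their direction. The untested members were low in AsPC-1 too, with means of at most 0.441 CPM. UGT1A10 had 87.3 and 88.2 CPM and UGT1A1 had 23 and 22.5 CPM in AsPC-1, but these genes share their last exons, so counts of single members are uncertain.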
